A study of Mus musculus with 12 samples.

Results

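The genes described here encode the surface and endosomal receptors with which innate immune cells recognise microbes, antibodies, sialic acids and growth factors, as measured in mouse blood. They were taken from the blood expression table by symbol: the Toll-like (Tlr), C-type lectin (Clec), sialic acid-binding (Siglec and Cd33), leukocyte immunoglobulin-like and paired (Lilr, Pir, Pilr), Cd300, Fc, formyl peptide (Fpr), Trem, colony-stimulating factor (Csf1r, Csf2r, Csf3r), scavenger (Msr1, Cd68), Sirp and Ly6c families, without Clec1b and Clec4n. The rule found 73 of the 8003 genes of that table by name alone. The table itself was selected on the outcome: it has as many genes as the study called different between these same groups, nearly all of them in the lower direction. The 73 genes are therefore not all innate receptor genes of the mouse, their direction was largely fixed by that selection, and shares given for all genes are shares of this selected table, not of the transcriptome. Cd14, Marco and Cd36, which the rule also allows, were not found in the table. The 2 marker genes of the set, Ly6c2 and Tlr4, are members by the same rule, so their levels describe it and cannot check its label. Ly6c2 was among the 6 highest of the 73 genes in every library. Tlr4 was low, at 1.61, 0.15 and 0.13 FPKM in the control libraries and at 0.08, 0.13 and 0.14 FPKM in the treated ones.

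The blood came from C57BL/6 mice aged 15 months, 3 in the control group (Ctrl 1, 2 and 3) and 3 in the *A. muciniphila*-treated group (Akk 1, 2 and 3), with 1 library of oligo(dT)-selected RNA per mouse. The labels call the controls normal and describe the agent as Akkermansia muciniphila Membrane Protein, with a duration of 6 weeks under the protocol and of 8 weeks under the treatment. The methods of the study instead describe oral gavage with the bacterium for 2 months after an antibiotic pretreatment, with a glycerin-containing saline as vehicle, and state that the mice taken for RNA were those that the bacterium had failed to colonise. Which of these descriptions holds for the 6 mice could not be settled. Values are FPKM, fragment counts corrected for the length of the transcript and for the size of the library, so that levels of different genes can be set side by side.

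Toll-like receptors detect microbial lipids, proteins and nucleic acids and signal through Myd88 or Ticam1. Many of the other families come as pairs of activating receptors, which signal through the adaptors Fcer1g and Tyrobp, and inhibitory receptors, which recruit phosphatases such as Ptpn6 to their tails. In blood these receptors are carried mainly by neutrophils, monocytes and dendritic cells. In RNA from whole blood, fewer cells of a type and less RNA per cell cannot be told apart.

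The 6 libraries were unequal. Summed over the table, the level was 70846 FPKM in Ctrl 1 and between 10311 and 19551 FPKM in the other 5, and Ctrl 1 held the highest value for 97.9% of these genes. Among the receptor genes Ctrl 1 was the highest library for 73 of 73. Its value was 4.82 to 70.8 times the mean of the other 5 libraries, with a median of 9.21 times against 5.78 times over all genes. The 73 genes together took 1.73% of the summed FPKM in Ctrl 1, 1.13% and 1.08% in Ctrl 2 and 3, and 1.06%, 1.12% and 1.38% in Akk 1, 2 and 3. Their summed level was 1229 FPKM in Ctrl 1, 220.4 in Ctrl 2 and 116 in Ctrl 3, against 122, 115 and 148 in the Akk libraries, so Ctrl 3 lay within the range of the treated mice. Fold changes of the receptor genes are therefore given with and without Ctrl 1.

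**Figure D1:**
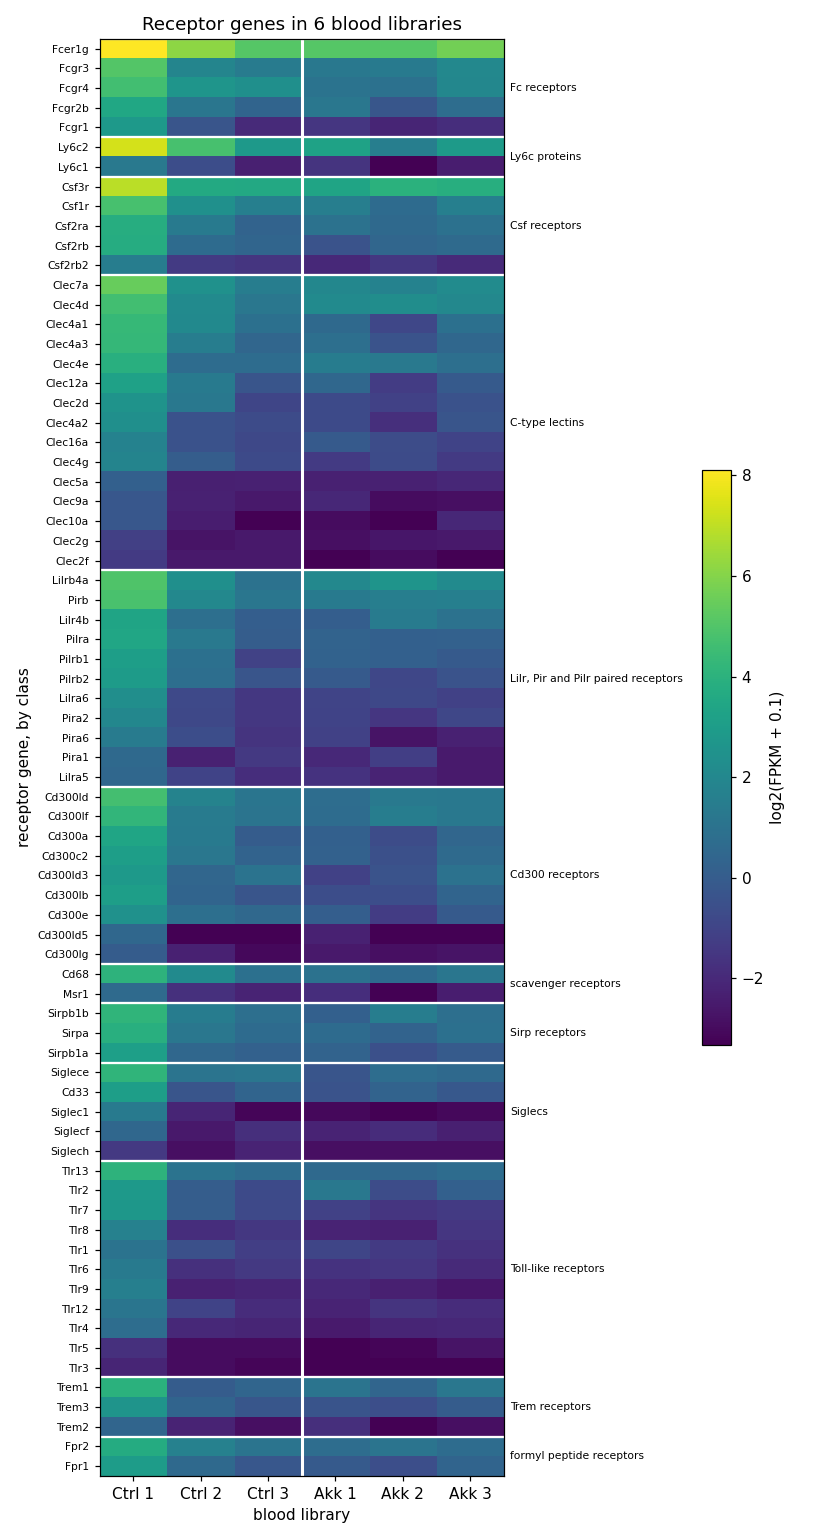
Level of each of the 73 receptor genes (rows, grouped by family) in the 6 blood libraries (columns), as log2(FPKM + 0.1) in colour. The column of Ctrl 1 is the highest in every row, and Fcer1g, Ly6c2 and Csf3r are the brightest cells in it.

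The comparison of Akk with Ctrl mice asks whether the treatment altered innate receptor transcripts in blood. No receptor gene passed the thresholds of limma (fold change of at least 1.5 and Benjamini-Hochberg adjusted p of at most 0.05 over the 8003 genes), neither lower nor higher, against 0.0% of all genes in either direction. The adjusted p was 0.487 for 66 receptor genes and lay between 0.495 and 0.643 for the other 7. At an unadjusted limma p under 0.05 there were 9 receptor genes (12.3%), namely Siglec1, Ly6c2, Clec4a1, Clec2f, Ly6c1, Fcgr1, Tlr7, Fcgr4 and Pira6, all with lower means in Akk, against 3.45% of all genes. Without Ctrl 1 the number was 4 (5.48%), namely Clec2f, Cd300e, Fcgr4 and Tlr7, against 5.29% of all genes. The number moved as much with other libraries: it was 48 without Ctrl 3 (20.1% of all genes), 5 without Ctrl 2 (2.56%), 5 without Akk 1 (1.11%), 2 without Akk 2 (0.675%) and 3 without Akk 3 (0.85%). All 73 had a negative log2 fold change, as did 99.5% of all genes, a sign that the selection of the table carries with it. Fold changes were taken as differences of log2(FPKM + 0.1), a scale that shrinks those of low genes. They ranged from -2.43 to -0.44 with a median of -1.25, beside a median of -0.87 over all genes. The standard errors lay between 0.33 and 0.99, and 27 of the 73 genes had a mean under 1 FPKM. The 46 receptor genes with a mean of at least 1 FPKM had a median of -1.33, against -1.11 over the 2366 genes past that filter. When those genes alone were fitted, 3 of the 46 had an unadjusted limma p under 0.05, against 3.04% of the 2366.

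Another description, which more genes of the table meet than an unadjusted p under 0.05 from limma, asks whether the 3 Akk values of a gene all lie below its 3 Ctrl values. This was so for 8 of the 73 receptor genes (11%), against 15.4% of all genes, and for none of them in the opposite direction, against 0.175% of all genes. The 8 genes were Tlr3, Tlr7, Tlr13, Fcgr4, Siglece, Cd300e, Fpr2 and Clec2f. Because Ctrl 1 was the highest library for all 73, leaving it out could not change which genes these were. It could only add genes in the opposite direction, and added 1, Clec4e, against 0.962% of all genes. The number in the lower direction ranged from 8 to 45 as single libraries were left out, with 45 without Ctrl 3, against 57.8% of all genes. When each library was centred on its own median over the table, Tlr7, Fcgr4 and Cd300e stayed separated. Tlr3, Tlr13, Siglece, Fpr2 and Clec2f then overlapped between the groups, and Tlr3 and Clec2f also had a mean under 1 FPKM. In a two-sided exact permutation test 3 mice against 3 cannot give a p below 0.1.

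**Figure D2:**
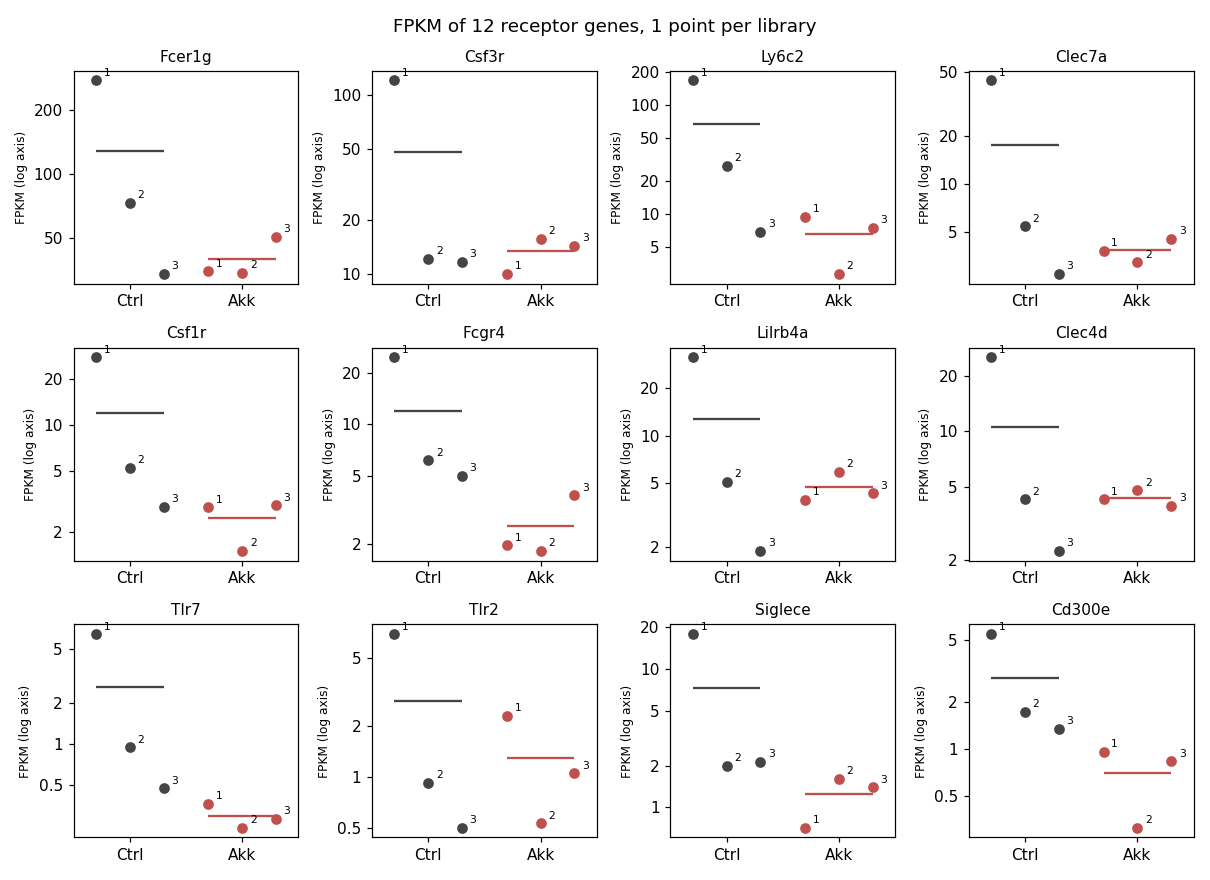
FPKM (log axis) of selected receptor genes in each library, numbered by mouse, with horizontal bars at the group means. Ctrl 1 lies above every other point in each panel, and the remaining Ctrl points lie above all Akk points in some genes, such as Tlr7 and Fcgr4, and among them in others, such as Csf3r.

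Ly6c2 and Ly6c1 encode the Ly6C surface proteins, whose high level marks the inflammatory class of mouse monocytes. The level of Ly6c2 was 168, 27.8 and 6.88 FPKM in Ctrl and 9.44, 2.82 and 7.49 FPKM in Akk. Ctrl 1 and Ctrl 2 were above all Akk mice, and Ctrl 3 fell inside the Akk range. Its log2 fold change of -2.43 (SE 0.95) was the most negative of the 73 genes, and it became -1.23 (SE 0.67) without Ctrl 1. When Ctrl 3 was left out it reached -3.52 (SE 0.91), with an adjusted p of 0.0393 from limma, so this call rests on the absence of 1 control library. Ly6c1 was far lower, at 2.40, 0.55 and 0.10 FPKM in Ctrl and 0.23, 0 and 0.09 FPKM in Akk, with Ctrl 3 again inside the range of the treated mice, and a log2 fold change of -1.90, SE 0.85, and -0.97 without Ctrl 1. Its transcript is 98.0% identical to that of Ly6c2 over 94.1% of its length, so reads may have been shared between the pair and the Ly6c1 values are uncertain.

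Ly6c2 (chr15:75108161-75112066, GRCm38.p6 as annotated by RefSeq) and Ly6c1 (chr15:75044018-75048920) lie on the same chromosome, and Fcgr4 (chr1:171018926-171029761) is the Fc receptor gene whose Akk values all lay under its Ctrl values. RefSeq promoter windows, which run from 250 bases before to 50 bases after a transcript start, were at hand for 60 of the 73 genes. They were searched on both strands for GAGGAAGT, a purine-rich core bound by PU.1, the transcription factor that drives myeloid cell fate, and for a pair of GAAA runs with any 2 bases between them, a pattern of the type found in interferon-responsive promoters. The former was found in 14 of the 60 genes (23.3%), against 997 of 27025 genes with a window (3.69%), and the latter in 10 of the 60 (16.7%), against 1079 (3.99%). These counts overstate the number of unlike promoters, because related genes share nearly the same stretch around the match. For GAGGAAGT these are Pira1, Pira2, Pirb and Lilra6, then Cd300ld, Cd300ld3 and Cd300ld5, then Ly6c1 and Ly6c2. For the interferon-type pattern they are Pilra, Pilrb1 and Pilrb2, then Sirpb1a and Sirpb1b. The motifs do not overlap one another in the windows printed here. The windows of Ly6c2, Ly6c1 and Fcgr4 are printed as examples that hold a match, with the matches in capitals. Clec4a1 and Fcgr1, with log2 fold changes of -2.23 and -2.03, held no match of either motif. Nor did Siglece, Cd300e, Fpr2, Tlr13 and Tlr3, whose groups did not overlap. Tlr7, Clec2f and Siglec1 were not among the 60 genes with a window. Whether a match goes with a difference between the groups was not tested. In Ly6c2, where RefSeq gives more than 1 start, the matches begin 142 and 8 bases before the start of the printed window's transcript, which is chr15:75111888-75112187 on the minus strand. Ly6c1 also has more than 1 start: in the printed window (chr15:75048614-75048913, minus strand) the match begins 127 bases before the start, and its other window (chr15:75048788-75049087) holds none. In Fcgr4 (chr1:171018676-171018975, plus strand) the interferon-type match begins 73 bases and the purine-rich match, on the opposite strand, 24 bases before the start. A match is a description of letters, and binding was not measured.
Ly6c2: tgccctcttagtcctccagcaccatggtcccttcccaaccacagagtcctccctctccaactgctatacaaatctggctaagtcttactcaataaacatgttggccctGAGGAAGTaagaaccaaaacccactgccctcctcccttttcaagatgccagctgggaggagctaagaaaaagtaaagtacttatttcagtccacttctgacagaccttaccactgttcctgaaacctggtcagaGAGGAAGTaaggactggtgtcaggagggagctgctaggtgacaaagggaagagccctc
Ly6c1: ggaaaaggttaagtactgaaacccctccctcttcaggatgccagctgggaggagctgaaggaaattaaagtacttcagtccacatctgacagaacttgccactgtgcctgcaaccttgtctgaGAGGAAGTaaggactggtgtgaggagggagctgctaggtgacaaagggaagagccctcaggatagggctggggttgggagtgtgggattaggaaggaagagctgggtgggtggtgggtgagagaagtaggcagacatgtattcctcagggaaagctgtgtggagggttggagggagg
Fcgr4: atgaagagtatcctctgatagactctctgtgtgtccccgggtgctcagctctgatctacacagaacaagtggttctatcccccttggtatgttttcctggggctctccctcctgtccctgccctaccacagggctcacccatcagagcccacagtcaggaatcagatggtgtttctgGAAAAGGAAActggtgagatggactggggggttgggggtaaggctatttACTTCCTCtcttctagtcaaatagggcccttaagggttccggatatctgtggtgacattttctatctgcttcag

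Fc receptors bind the constant part of antibodies. Fcer1g, the signalling chain shared by activating Fc receptors, was the most abundant of the 73 genes in every library, at 276, 72.8 and 33.6 FPKM in Ctrl and 34.6, 34.2 and 50.5 FPKM in Akk. Ctrl 3 lay below all 3 Akk mice, so the groups overlapped, and the log2 fold change was -1.16, SE 0.99, and -0.34 without Ctrl 1. Fcgr4, an activating receptor of monocytes and neutrophils, gave 24.6, 6.16 and 5.02 FPKM in Ctrl and 1.97, 1.83 and 3.85 FPKM in Akk. Here the lowest Ctrl mouse was still above the highest Akk mouse, the log2 fold change was -1.88 (SE 0.94), and without Ctrl 1 it stayed negative at -1.17 (SE 0.39). Fcgr3, the low-affinity activating receptor, read 33.0, 3.59 and 2.63 FPKM in Ctrl and 2.30, 2.51 and 3.89 FPKM in Akk, a log2 fold change of -1.25, SE 0.94, and -0.12 without Ctrl 1, with Ctrl 2 and 3 among the Akk values. The inhibitory receptor Fcgr2b and the high-affinity receptor Fcgr1, which are described because they complete the family, had log2 fold changes of -1.11 and -2.03, which were -0.19 and -0.71 without Ctrl 1. Fcgr1 was at 7.06, 0.72 and 0.16 FPKM in Ctrl and 0.25, 0.13 and 0.18 FPKM in Akk, with Ctrl 3 below Akk 1 and Akk 3. The 4 genes Fcgr2b, Fcgr4, Fcgr3 and Fcer1g lie within chr1:170960558-171234349.

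Of the 11 Toll-like receptor genes, Tlr7, Tlr13 and Tlr3 had no overlap between the groups. Tlr7, a receptor for single-stranded RNA in endosomes, read 6.46, 0.94 and 0.47 FPKM in Ctrl and 0.36, 0.24 and 0.28 FPKM in Akk. Every Ctrl mouse was above every Akk mouse, with a log2 fold change of -2.01 (SE 0.92) and of -0.98 (SE 0.41) without Ctrl 1. Tlr13, which recognises bacterial ribosomal RNA in mice, gave 16.5, 1.92 and 1.55 FPKM against 1.42, 1.31 and 1.54 FPKM, where Ctrl 3 exceeded the highest Akk mouse by only the last decimal, and a log2 fold change of -1.33, SE 0.93, and -0.26 without Ctrl 1. Tlr3, the receptor for double-stranded RNA, was listed at 0.13, 0.03 and 0.01 FPKM in Ctrl and at 0 in all 3 Akk libraries, values too low for a fold. Tlr8, another RNA receptor and the neighbour of Tlr7 on the X chromosome, had Ctrl values of 3.11, 0.18 and 0.26 FPKM that overlapped the Akk values of 0.12, 0.11 and 0.25 FPKM.

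The other Toll-like genes overlapped between the groups. Tlr4, the lipopolysaccharide receptor, was at 0.15 FPKM or less in every library but Ctrl 1, with a log2 fold change of -1.10 (SE 0.81) that became -0.16 (SE 0.32) without that library. Tlr2, which recognises bacterial lipoproteins, was the Toll-like gene with the smallest difference: its Ctrl values were 6.94, 0.92 and 0.50 FPKM and its Akk values 2.29, 0.53 and 1.05 FPKM, a log2 fold change of -0.44 (SE 0.92). Akk 1 and Akk 3 were above Ctrl 2 and Ctrl 3, and the estimate turned to 0.62 (SE 0.56) without Ctrl 1 and to 0.03 without Akk 2. Its partners in heterodimers, Tlr1 and Tlr6, had log2 fold changes of -1.11 and -1.10, and of -0.47 and -0.11 without Ctrl 1. The flagellin receptor Tlr5 (-0.54), the DNA receptor Tlr9 (-1.40) and the profilin receptor Tlr12 (-1.30) were at or below 0.40 FPKM outside Ctrl 1, without which their log2 fold changes were -0.14, -0.14 and -0.45. The median over the 11 genes was -1.11, and -0.26 without Ctrl 1.

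The 15 C-type lectin genes, which bind sugars and other ligands, held some of the smallest and some of the largest differences among the 73. Clec7a (Dectin-1, the receptor for fungal beta-glucan) read 44.2, 5.43 and 2.73 FPKM in Ctrl and 3.80, 3.23 and 4.54 FPKM in Akk, a log2 fold change of -1.17 (SE 0.94) that was -0.01 (SE 0.38) without Ctrl 1. Ctrl 2 and 3 lay on either side of the Akk mice. Clec4d, which with Clec4e (Mincle) recognises mycobacterial glycolipids, gave 25.1, 4.28 and 2.25 FPKM and 4.29, 4.80 and 3.95 FPKM, with log2 fold changes of -0.53 (SE 0.94) over all mice and 0.47 (SE 0.36) without Ctrl 1. Clec4e, its neighbour on chromosome 6, was at 14.6, 1.55 and 1.55 FPKM in Ctrl and 2.72, 2.33 and 1.70 FPKM in Akk, the only member with all Akk mice above Ctrl 2 and Ctrl 3, and its log2 fold change of -0.56 became 0.49 without Ctrl 1. Clec2f, a lectin-like gene of the natural killer gene region, was low, at 0.28, 0.07 and 0.07 FPKM in Ctrl and 0, 0.03 and 0 FPKM in Akk, and did not overlap (log2 fold change -1.03, SE 0.44, and -0.64 without Ctrl 1).

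In the same cluster on chromosome 6 as Clec4d and Clec4e, Clec4a1, Clec4a3 and Clec4a2 encode receptors of the DCIR group, of which Clec4a2 is the inhibitory prototype. Clec4a1, chosen after its values were seen, was at 19.9, 4.15 and 1.78 FPKM in Ctrl and 1.41, 0.44 and 1.78 FPKM in Akk. The log2 fold change was -2.23 (SE 0.93), and -1.29 (SE 0.58) without Ctrl 1. Ctrl 3 equalled Akk 3 to the last decimal, which is why the gene does not count as separated. Clec4a3 and Clec4a2 had log2 fold changes of -1.76 and -1.35, against -0.53 and -0.56 in the other genes of the cluster. Without Ctrl 1 they were -0.65 for Clec4a3 and -0.36 for Clec4a2. Clec12a, an inhibitory receptor for uric acid crystals, gave -1.72, SE 0.92, and -0.83 without Ctrl 1. The remaining lectin genes lay between -1.72 (Clec2d) and -0.53 (Clec2g), among them Clec16a, which despite its name encodes an intracellular protein. Without Ctrl 1 the estimates were positive for Clec16a (0.07), Clec5a (0.10) and Clec10a (0.08).

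The leukocyte immunoglobulin-like and paired receptors include inhibitory and activating forms that bind major histocompatibility class I molecules and related ligands. Lilrb4a, an inhibitory receptor of myeloid cells, was at 31.1, 5.12 and 1.88 FPKM in Ctrl and 3.95, 5.94 and 4.33 FPKM in Akk. Akk 2 exceeded Ctrl 2, and all Akk mice exceeded Ctrl 3. Its log2 fold change was -0.52 (SE 0.94), and 0.57 (SE 0.45) without Ctrl 1. Pirb, the inhibitory paired receptor, read 28.5, 3.95 and 2.13 FPKM against 2.55, 2.82 and 2.93 FPKM, a log2 fold change of -1.15, SE 0.93, and -0.07 without Ctrl 1, and Ctrl 3 was below every Akk mouse. The activating counterparts Pira1, Pira2 and Pira6 gave -0.85, -1.02 and -1.77, and -0.04, 0.02 and -0.93 without Ctrl 1. The median over the 11 genes of the group was -1.02, and -0.04 without Ctrl 1. Transcripts of these genes are near-identical in part: 15 of the 72 receptor genes with a transcript in the annotation were 95% identical or more to a transcript of another gene, along 50% or more of their length, among them Lilrb4a, Lilr4b, Lilra6, Pira2, Pirb, Pilrb1 and Pilrb2 and, in other families, Cd300ld3, Cd300ld5, Csf2rb, Csf2rb2, Fpr2, Ly6c1, Sirpb1a and Sirpb1b, and how such reads were assigned could alter these values.

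Siglecs bind sialic acids on the body's own cells, and most restrain the cell that carries them. Siglece, the inhibitory siglec of mouse neutrophils and macrophages, was at 17.8, 2.00 and 2.13 FPKM in Ctrl and 0.71, 1.61 and 1.39 FPKM in Akk. No Akk mouse reached the lowest Ctrl mouse, and the log2 fold change was -1.78 (SE 0.93), or -0.77 (SE 0.40) without Ctrl 1. Cd33 gave 8.36, 0.71 and 1.19 FPKM and 0.65, 1.15 and 0.79 FPKM, a log2 fold change of -1.14, SE 0.92, and -0.12 without Ctrl 1, and Ctrl 2 was among the Akk values. Siglec1 (sialoadhesin, a macrophage receptor without an inhibitory tail) had the smallest unadjusted p of the 73 genes and is named for that after its values were seen. It was listed at 2.55, 0.13 and 0.01 FPKM in Ctrl and 0.02, 0 and 0.02 FPKM in Akk, so that nearly all of its signal came from Ctrl 1. The log2 fold change of -1.85 (SE 0.62) became -0.49 (SE 0.28) without Ctrl 1, and without Ctrl 3 it was -2.79 (SE 0.70), with an adjusted p of 0.0340 from limma. Siglec1 and Ly6c2 were the 2 receptor genes past the thresholds without Ctrl 3, a setting in which 0.287% of all genes were called.

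Among the 9 Cd300 genes, which encode lipid-binding receptors, 8 lie in a row within chr11:114889152-115135372. Cd300e, an activating receptor of monocytes, read 5.49, 1.73 and 1.35 FPKM in Ctrl and 0.96, 0.31 and 0.83 FPKM in Akk, without overlap, and its log2 fold changes were -1.73 (SE 0.92) over all mice and -1.14 (SE 0.46) without Ctrl 1. Cd300ld and the inhibitory Cd300lf were more abundant and overlapped: Cd300ld gave 25.6, 3.36 and 2.08 FPKM and 1.62, 2.35 and 2.31 FPKM, with a log2 fold change of -1.42, SE 0.93, and -0.34 without Ctrl 1. For Cd300lf the Ctrl values were 18.1, 2.60 and 2.01 FPKM, the Akk values 1.53, 2.79 and 2.31 FPKM, and the log2 fold change -1.06, SE 0.93, and -0.09 without Ctrl 1. The median over the 9 genes was -1.42, and -0.34 without Ctrl 1.

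Sirpa, the inhibitory receptor for the Cd47 signal on other cells, was at 14.5, 2.25 and 1.5 FPKM in Ctrl and 1.5, 1.16 and 1.75 FPKM in Akk (log2 fold change -1.29, SE 0.93, and -0.32 without Ctrl 1), and the activating Sirpb1b at 17.8, 2.72 and 1.73 FPKM and 1.03, 2.73 and 1.73 FPKM (log2 fold change -1.33, SE 0.93, and -0.33 without Ctrl 1). Both overlapped between groups. Trem1, an amplifier of inflammatory responses, stood at 15.8, 0.89 and 1.24 FPKM in Ctrl and 1.99, 1.22 and 2.19 FPKM in Akk, with Akk 1 and Akk 3 above Ctrl 2 and Ctrl 3. Its log2 fold change was -0.58 (SE 0.93), and 0.68 (SE 0.37) without Ctrl 1. The related Trem3 read 5.98, 1.18 and 0.73 FPKM and 0.68, 0.58 and 0.91 FPKM (log2 fold change -1.20, SE 0.92, and -0.34 without Ctrl 1), and Trem2, a lipid receptor of macrophages, had a log2 fold change of -1.11, and of -0.14 without Ctrl 1.

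Formyl peptide receptors guide phagocytes towards bacterial peptides. Fpr2 was at 12.8, 3.15 and 2.02 FPKM in Ctrl and 1.60, 1.99 and 1.56 FPKM in Akk, where Ctrl 3 was just above the highest Akk mouse, and the log2 fold change was -1.31, SE 0.93, and -0.54 without Ctrl 1. Fpr1 gave 7.82, 1.40 and 0.75 FPKM and 0.85, 0.58 and 1.17 FPKM with overlap (log2 fold change -1.21, SE 0.92, and -0.27 without Ctrl 1). Cd68, a lysosomal glycoprotein of monocytes and macrophages, read 16.7, 4.32 and 1.79 FPKM and 1.87, 1.52 and 2.17 FPKM (log2 fold change -1.43, SE 0.93, and -0.58 without Ctrl 1). Ctrl 3 was within the Akk range for Fpr1 and Cd68. The scavenger receptor Msr1 was lower, at 1.46, 0.20 and 0.12 FPKM and 0.18, 0 and 0.09 FPKM (log2 fold change -1.42, SE 0.77, and -0.56 without Ctrl 1).

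The receptors for colony-stimulating factors set the survival and output of myeloid cells. Csf3r, the receptor for granulocyte colony-stimulating factor, stood at 121, 12.2 and 11.7 FPKM in Ctrl and 9.99, 15.7 and 14.4 FPKM in Akk. Ctrl 2 and Ctrl 3 lay inside the Akk range, and the log2 fold change of -0.98 (SE 0.96) was 0.13 (SE 0.35) without Ctrl 1. Csf1r, the receptor of the monocyte and macrophage lineage, gave 27.5, 5.26 and 2.92 FPKM and 2.90, 1.51 and 2.99 FPKM, a log2 fold change of -1.64 (SE 0.93) and of -0.71 (SE 0.42) without Ctrl 1. Csf2ra, Csf2rb and Csf2rb2, which build the receptors for granulocyte-macrophage colony-stimulating factor and interleukin-3, had log2 fold changes of -0.97, -1.39 and -1.33, which were 0.02, -0.31 and -0.33 without Ctrl 1. As a description chosen after the values were seen, the level of Ly6c2 divided by that of Csf3r in the same library was 1.39, 2.28 and 0.59 in Ctrl and 0.94, 0.18 and 0.52 in Akk, a ratio in which Ctrl 1 was not the highest library and Ctrl 3 lay within the Akk range.

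Leaving out Ctrl 1 moved the median of the 73 genes from -1.25 to -0.33, and that of all genes from -0.87 to -0.24. Because Ctrl 1 was the highest library for all 73, their fold changes could only rise. The log2 fold change was then negative for 57 receptor genes and positive for 16, beside 81.6% negative among all genes, and none passed the thresholds. The 16 were Tlr2, Trem1, Lilrb4a, Lilr4b, Lilra6, Pilrb1, Pira2, Clec4d, Clec4e, Clec5a, Clec10a, Clec16a, Cd300ld5, Siglecf, Csf3r and Csf2ra. When each library was centred on its own median over the table, with all 6 kept, 56 receptor genes were negative and 17 positive, against 45.1% negative over all genes, with medians of -0.33 and 0.04. With both steps the medians were -0.08 and 0.01 and 42 of the 73 genes were negative. The order among families was led in each of these settings by the pair of Ly6c genes, whose median went from -2.16 to -1.10 without Ctrl 1 and to -1.25 after centring. Leaving out another control library, without centring, made the median of the 73 genes more negative. It was -1.54 without Ctrl 2 and -1.88 without Ctrl 3, beside -1.07 and -1.32 over all genes.

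**Figure D3:**
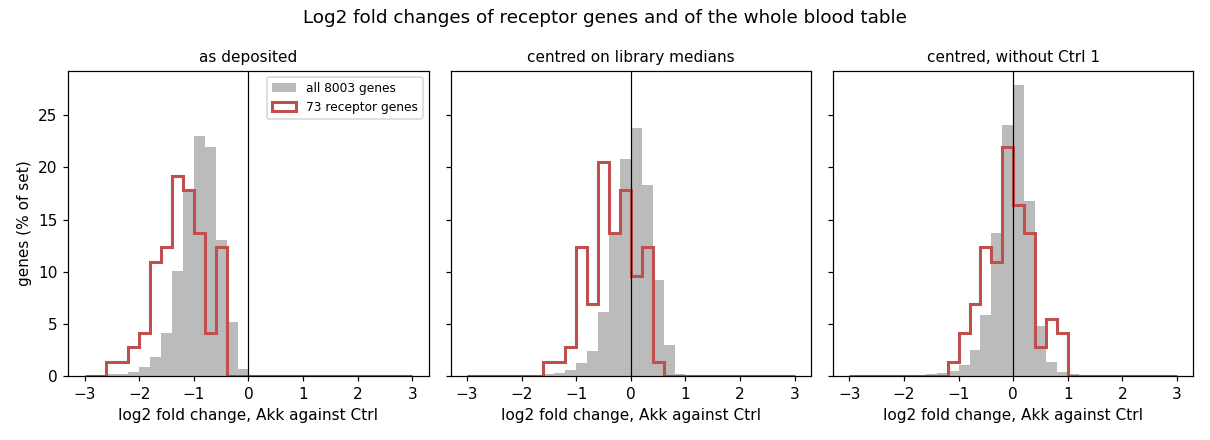
Distribution of log2 fold changes (Akk against Ctrl, horizontal axis) of the 73 receptor genes (red outline) and all 8003 genes (grey bars), as a percentage of each set (vertical axis), for the values as deposited, after centring each library on its median, and after centring without Ctrl 1. The medians of receptor and all genes are -1.25 and -0.87 in the first panel, -0.33 and 0.04 in the middle one, and -0.08 and 0.01 in the last, where the receptor genes spread to both sides of 0.

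**Figure D4:**
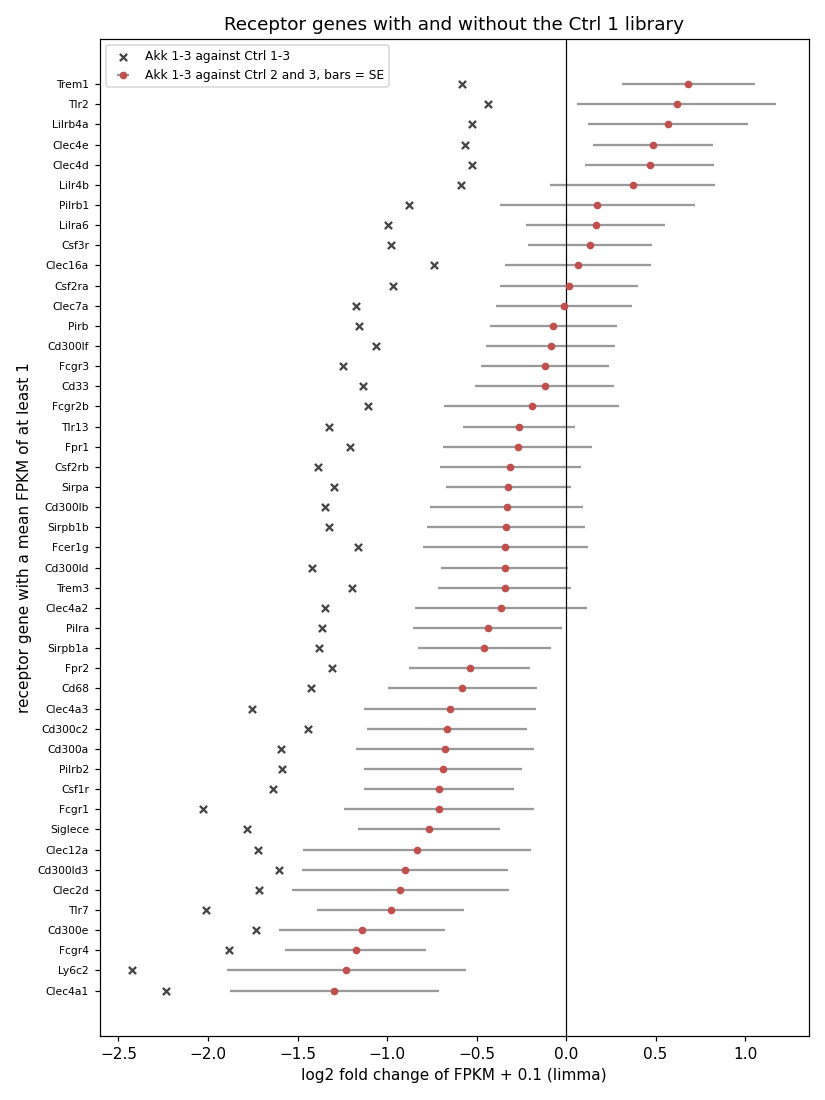
Log2 fold change, the difference of mean log2(FPKM + 0.1) (horizontal axis), for the 46 receptor genes with a mean of at least 1 FPKM (rows), with all 6 libraries (crosses) and without Ctrl 1 (red points, bars are the SE from limma). Every point lies to the right of its cross, as it must where Ctrl 1 is the highest library. Of the 46 points 11 lie above 0, and Clec4a1, Ly6c2, Fcgr4 and Cd300e lie farthest below 0.

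The difference between Ctrl 1 and its own group was larger in the receptor genes than in the table: the median log2 difference of Ctrl 1 over Ctrl 2 was 2.52 in the 73 genes and 1.68 in all genes, and over Ctrl 3 it was 3.16 and 2.19. Ctrl 2 also exceeded Ctrl 3 in 57 of the 73 genes, by a median of 0.65 on the log2 scale against 0.43 over all genes. After each library's own median was taken off, the median receptor gene stood 2.26, 1.53 and 1.34 above it in Ctrl 1, 2 and 3, and 0.96, 1.17 and 1.68 above it in Akk 1, 2 and 3. On that scale Ctrl 3 lay between Akk 2 and Akk 3, and Ctrl 2 between the same mice.

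The receptors signal through shared partners. Of a list of 33 adaptors, kinases and phosphatases, 31 were in the table, 1 of them the receptor gene Fcer1g. None passed the thresholds in either direction, against 0.0% of all genes. All 31 had negative log2 fold changes, as did 99.5% of all genes. Their median was -1.11, and -0.24 without Ctrl 1, beside -0.87 and -0.24 over all genes. Tyrobp, the adaptor of Trem and activating Siglec and Cd300 receptors, was at 163, 38.4 and 16.6 FPKM in Ctrl and 23.6, 19.6 and 22.1 FPKM in Akk, and Lyn, the kinase that phosphorylates receptor tails, at 56.2, 8.03 and 5.48 FPKM and 6.34, 6.39 and 5.98 FPKM. Both had a log2 fold change of -1.11, with SE 0.97 for Tyrobp and 0.95 for Lyn. Without Ctrl 1 it was -0.22 for Tyrobp and -0.09 for Lyn, and in both Ctrl 3 was below all 3 Akk mice.

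Marker lists of the blood cell types, like the receptors and 99.5% of all genes, had negative fold changes. The 10 monocyte markers summed to 287, 44.4 and 20.4 FPKM in Ctrl and to 27.4, 14.5 and 23.6 FPKM in Akk, and their median log2 difference was -1.71, or -0.80 without Ctrl 1. The 8 neutrophil markers of 10 in the table summed to 259 to 1306 FPKM in Ctrl and 136 to 362 FPKM in Akk, with a median of -1.65, and -0.74 without Ctrl 1. The 10 platelet markers gave 344 to 3428 FPKM and 420 to 536 FPKM (-1.16, and -0.27 without Ctrl 1), the 8 natural killer cell markers 15.0 to 66.4 FPKM and 6.87 to 12.1 FPKM (-1.54, and -1.06 without Ctrl 1), and the 6 dendritic cell markers of 8 gave 2.72 to 30.2 FPKM and 1.80 to 3.92 FPKM (-1.19, and -0.46 without Ctrl 1). All 3 Akk values lay below all 3 Ctrl values for 7 of 8 natural killer cell, 4 of 8 neutrophil and 3 of 10 monocyte markers. The same held for 2 of 10 platelet, 1 of 6 dendritic cell, 2 of 6 T cell and 0 of 2 B cell markers. It also held for 1 of 2 red cell markers and 2 of 2 of basophils, mast cells and eosinophils, against 15.4% of all genes. For T cells 6 markers of 10 summed to 8.34 to 20.8 FPKM and 2.41 to 9.45 FPKM (-1.24, and -0.88 without Ctrl 1), for B cells 2 of 10 to 2.76 to 12.9 FPKM and 2.17 to 6.02 FPKM (-0.66, -0.10 without Ctrl 1 and 0.25 after centring), and for basophils, mast cells and eosinophils 2 of 10, with Ccr3 listed at 0 in Akk 1, to 0.96 to 6.68 FPKM and 0.40 to 0.58 FPKM (-1.48, and -0.67 without Ctrl 1). The red cell list had 2 of 16 genes, Epor and Ank1, and is too small to check these samples for red cells: it summed to 1.5, 3.76 and 3.34 FPKM in Ctrl and 0.66, 1.98 and 1.05 FPKM in Akk (-1.19, and -1.35 without Ctrl 1). After centring, the medians of the other lists were all negative. They were -0.80 for monocyte, -0.74 for neutrophil, -0.62 for natural killer cell and -0.32 for T cell markers. For platelets the value was -0.25, for dendritic cells -0.27, for red cells -0.27, and for basophils, mast cells and eosinophils -0.57. No gene of any list passed the thresholds. The part of the cell type makeup in the receptor differences was not tested.

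The hippocampus table of the same series lists 3 of the 73 genes. It holds only 284 genes, selected by the authors, so the direction of these 3 may follow from that selection. Pirb was at 0.31, 0.81 and 0.37 FPKM in Ctrl and 0.19, 0.35 and 0.32 FPKM in Akk, and Tlr12 at 0.33, 0.24 and 0.12 FPKM and 0.15, 0.08 and 0.10 FPKM. Cd300ld3 stood at 1.10, 0.96 and 1.09 FPKM in Ctrl and 0, 1.06 and 0.71 FPKM in Akk. In blood the Cd300ld3 values were 7.11, 1.27 and 1.92 FPKM in Ctrl and 0.37, 0.66 and 1.89 FPKM in Akk. The groups overlapped for Pirb, Tlr12 and Cd300ld3 in the hippocampus, and no test was made there.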

How the data were processed

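Blood RNA from 6 mice was sequenced on the BGISEQ-500. The authors deposited FPKM, rounded to 2 decimals, for selected genes: 8003 in blood and 284 in hippocampus. The methods of the study name removal of adaptor, poly-N and low-quality reads, mapping with HISAT2 and Bowtie2, and RSEM, whereas the submitters' processing notes name TopHat2, Cufflinks and GRCm38. Depth is unknown, so counting error could not be given, and precision is limited by the 3 mice per group. That the labels name separate mice as replicates was taken as given.

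The deposited FPKM were transformed to log2(FPKM + 0.1), and Akk was compared with Ctrl in limma 3.58.1 (R 4.3.3), with an intensity trend, no scaling between libraries and Benjamini-Hochberg adjustment over all blood genes. The thresholds were those of the study's methods (fold change 1.5, adjusted p 0.05). The fit was run on simulated data with independent noise for each gene and a known change planted in some genes. No shift of a whole library such as that of Ctrl 1 was simulated, so the run does not cover it. Near-identical transcripts came from blastn 2.17.0 on GENCODE transcripts, and promoter windows and positions from RefSeq (GRCm38.p6, 72 of 73 genes matched). Python 3.11.15, pandas 2.3.3, numpy 2.4.6 and matplotlib 3.10.9 were used otherwise.

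Genes were named by rule: in each family the 2 with the highest mean FPKM, Tlr4 and Ly6c2, up to 12 without overlap between groups by smallest unadjusted p, up to 5 with a higher mean in Akk (there were none), and the 3 most abundant signalling partners. Others were chosen after their values were seen, or complete a family. The members and lists were chosen with earlier results of these data known. Alternatives were a pseudocount of 1, genes with a mean of at least 1 FPKM, libraries centred on their median, the replicate number as a block, each library left out, and centring without Ctrl 1. Hippocampal values were used for 3 genes only.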

Additional observations from a re-analysis of the deposited data

How the results depend on the processing

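Against 0 blood genes past the thresholds in limma (276 at an unadjusted p under 0.05), centring on the library median called 1 gene (higher), the replicate block 1 (lower) and centring without Ctrl 1 called 2 (1 lower, 1 higher). Leaving out each library gave 0 to 23 blood genes, and 0 to 2 receptor genes, the 2 being Ly6c2 and Siglec1 without Ctrl 3. The replicate block called 0 receptor genes, and the number marks different mice, whose deviations did not go together (correlations 0.04, -0.01 and -0.10 between same-numbered libraries). Receptor genes without overlap numbered 8, all lower (15.4% of all genes were lower), against 5 lower and 0 higher after centring (4.44% and 4.01% of all genes) and 5 lower and 6 higher, 11 in all, on centring without Ctrl 1 (9.1% and 7.67%). With a library left out they numbered 9 to 45: 9 without Ctrl 1 (8 lower, 1 higher), and, all lower, 14 without Ctrl 2 (19.4% of all genes), 45 without Ctrl 3 (57.8%), 17 without Akk 1 (41.8%), 10 without Akk 2 (18.6%) and 18 without Akk 3 (18.6%). The 5 genes lower after centring with all libraries kept included Tlr7, Fcgr4 and Cd300e, but not Tlr3, Tlr13, Siglece, Fpr2 or Clec2f. On centring, the log2 fold change turned to 0.39 for Clec4d, 0.39 for Lilrb4a, 0.48 for Tlr2, 0.34 for Tlr3 and 0.33 for Trem1. For Tlr3, listed at 0 in every Akk library, that sign comes from the pseudocount and the library medians and is no fold change. On centring without Ctrl 1 it turned to 0.16 for Cd300lf, 0.13 for Cd33, 0.72 for Clec4d, 0.24 for Clec7a, 0.38 for Csf3r, 0.13 for Fcgr3, 0.82 for Lilrb4a, 0.18 for Pirb, 0.87 for Tlr2, 0.093 for Tlr4 and 0.93 for Trem1. With a library left out, ranges that crossed 0 among the genes named by rule were -1.25 to 0.47 for Clec4d, -1.54 to 0.13 for Csf3r, -1.42 to 0.57 for Lilrb4a, -1.16 to 0.62 for Tlr2 and -1.32 to 0.68 for Trem1. These turned without Ctrl 1, and Tlr2 also without Akk 2 (0.03). The cause was not tested. The pseudocount of 1 changed no call of a receptor gene and no direction of the 30 genes named by rule, and the filter none of the 46 receptor genes and 25 named genes it kept.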
